A study of Arabidopsis thaliana with 6 samples.

Results

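Nuclear genes for the light reactions of photosynthesis were examined in leaves of Arabidopsis thaliana that express the transgene AmGSTF1 and in leaves of untransformed Col0. The list holds 49 loci for light-harvesting proteins, nuclear-encoded subunits of photosystems I and II, electron carriers and subunits of the chloroplast ATP synthase. A locus was measured where the platform annotation gave a probe set to it alone, and the brightest such probe set was taken. This gave 8 measured genes of the 49, each with 1 probe set, among 22746 probe sets in the deposited table. They are LHCB4.1, LHCB4.2 and LHCB4.3 of the antenna of photosystem II, PSAE1 and PSAN of photosystem I, PSBW and PSBY of photosystem II, and ATPC1 of the ATP synthase.

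AmGSTF1 is a grass-weed enzyme of the glutathione transferase family, and the study concerns its role in resistance to several herbicides. Both groups have the Col0 background and differ by the labelled transgene, AmGSTF1 against none, with 3 arrays per group, each labelled as a biological replicate. All seeds were chilled at 4 °C for 72 hours before sowing. All plants then grew at 20 °C in days of 16 hours, and all leaves floated for 4 hours on 0.1% Tween 20 with 0.1% acetone before RNA was taken, so the control leaves had the same handling and the labels name no herbicide. The sources used here do not give the promoter of the transgene, the number of lines, the age of the plants or the number of plants behind the 10 leaves of each replicate. The transgene had no probe set of its own here, so its level could not check the labels.

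In the light reactions, antenna proteins bind chlorophyll and pass excitation energy to the photosystem cores, where it drives electrons from water to ferredoxin. The resulting proton gradient turns the chloroplast ATP synthase. The core reaction-centre proteins are encoded in the plastid, whereas the antenna and many small subunits are encoded in the nucleus and imported, so each complex draws on both genomes. In leaves these nuclear genes are known for high transcript levels that respond to light, sugars and stress.

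The remaining 41 loci were not analysed here, because the annotation used gave none of them a probe set alone. They are all 6 light-harvesting genes of photosystem I (LHCA1 to LHCA6), and LHCB1.1, LHCB1.4, LHCB1.5, LHCB2.1, LHCB2.2, LHCB2.3, LHCB3, LHCB5, LHCB6 and LHCB7 of the 13 antenna genes of photosystem II. Of 12 photosystem I genes they include PSAD1, PSAD2, PSAE2, PSAF, PSAG, PSAH1, PSAH2, PSAK, PSAL and PSAO. Of 10 photosystem II genes they include PSBO1, PSBO2, PSBP1, PSBQ1, PSBQ2, PSBR, PSBS and PSBX. All 6 electron carrier genes (PETC, PETE1, PETE2, FD2, LFNR1 and LFNR2) and ATPD of the 2 ATP synthase genes complete the set. The values below therefore describe 4 of the 6 classes of genes, and no statement is made on the photosystem I antenna or the electron carriers. The array may still carry probes for the loci left out, since 8730 of its probe sets were unnamed here.

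None of the 8 genes passed the test between AmGSTF1 and Col0. Differences are given as AmGSTF1 minus Col0 on the log2(signal + 16) scale, tested with limma over the 13647 probe sets left after the dimmest 40% were removed, and a gene was called at a Benjamini-Hochberg adjusted p under 0.05. All 8 genes passed this filter on low signals. Calls numbered 0 of 8 higher and 0 of 8 lower, where 2.14% of all probe sets tested were higher and 2.9% lower. At an unadjusted p under 0.05 there was 1 of 8, LHCB4.2, beside 23.3% of all probe sets tested. The groups overlapped in each of the 8 genes, whereas they did not overlap for 27.6% of the probe sets tested. The 8 differences ran from -0.25 to 0.48 with a median of 0.10, and the median over all probe sets tested was 0.047. Values were above 0 in 6 of the 8 genes and in 55.9% of all probe sets tested, and under median centring of the arrays in 4 of the 8. In whole leaves, fewer cells of a type and less RNA per cell cannot be told apart.

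**Figure D1:**
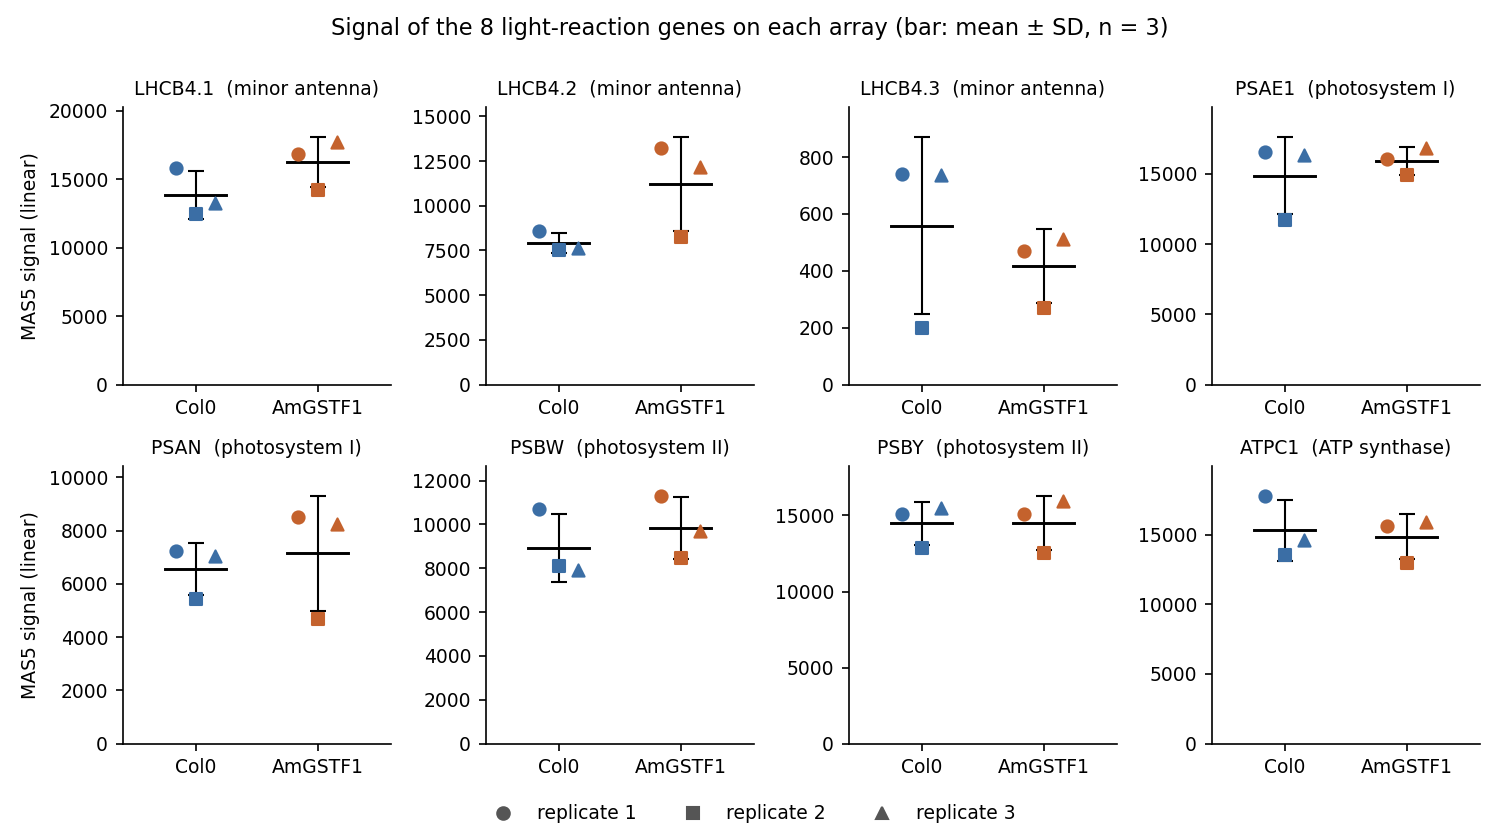
MAS5 signal (linear scale, starting at 0) of the 8 measured light-reaction genes on the 3 Col0 arrays (blue) and the 3 AmGSTF1 arrays (orange), with replicate numbers as marker shapes, the group mean as a horizontal line and the SD as the error bar. The groups overlap in all 8 genes, and in LHCB4.2 the AmGSTF1 arrays 1 and 3 (13241 and 12170) lie above all Col0 arrays while AmGSTF1 replicate 2 (8260) lies within their range.

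The 3 antenna genes encode isoforms of CP29, a monomeric minor antenna protein that sits between the trimeric light-harvesting complex and the core of photosystem II. LHCB4.2 (AT3G08940) had the largest difference of the 8 genes. Its signals were 8565, 7542 and 7634 in Col0 replicates 1, 2 and 3 and 13241, 8260 and 12170 in AmGSTF1 replicates 1, 2 and 3. AmGSTF1 replicates 1 and 3 were thus above every Col0 array, and AmGSTF1 replicate 2 lay between Col0 replicates 1 and 3. The group means were 7914 ± 566 and 11224 ± 2622 (SD, n = 3). The log2 difference of LHCB4.2 was 0.48 (SE 0.18, 95% interval 0.080 to 0.87), a 1.39-fold ratio on this scale, with an adjusted p of 0.145 by limma.

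The LHCB4.2 value rested on which arrays entered. It was 0.68 and passed limma's threshold (adjusted p = 0.0199) without AmGSTF1 replicate 2, where 3.69% of all probe sets tested were higher. It was 0.54 (adjusted p = 0.0494) with array weights, where 5.96% were higher. Without AmGSTF1 replicate 1 it was 0.34 (adjusted p = 0.402) and without AmGSTF1 replicate 3 it was 0.40 (0.342). Over the quantile, median and loess scalings it ranged from 0.39 to 0.57 and did not pass.

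LHCB4.1 (AT5G01530) gave 15827, 12428 and 13262 as signals in Col0 and 16838, 14233 and 17735 in AmGSTF1, in the order of the replicate numbers. Here AmGSTF1 replicates 1 and 3 were above the Col0 arrays, and AmGSTF1 replicate 2 fell inside their range. Its log2 difference was 0.23 (SE 0.14, 95% interval -0.079 to 0.55), with an adjusted p of 0.349 by limma. The interval corresponds to ratios from 0.947 to 1.46. This value was above 0 in all 21 alternatives tried, from 0.15 under median centring to 0.35 under cyclic loess scaling. Many of these, such as other filters on low signals or the replicate block, could not change the difference itself.

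LHCB4.3 (AT2G40100), a divergent isoform also known as LHCB8, was the most variable of the 8 genes. Its Col0 signals were 740, 199 and 737, and its AmGSTF1 signals were 471, 269 and 513. Col0 replicates 1 and 3 were above every AmGSTF1 array, and Col0 replicate 2 was below every one. The SD on the log2 scale was 1.05 in Col0 and 0.49 in AmGSTF1, and the log2 difference was -0.25 (SE 0.45, 95% interval -1.25 to 0.76, adjusted p = 0.787 by limma). Without Col0 replicate 2 the difference was -0.85 (adjusted p = 0.0798), whereas without Col0 replicate 1 it was 0.058 (0.968), so its sign depended on single arrays.

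Whether these isoforms moved unequally was tested with the log2 ratio of each pair within an array, and 5 pairs were compared in all, each within a complex. LHCB4.2 differed between groups by 0.24 more than LHCB4.1 (two-sided exact permutation test over 6 arrays, p = 0.2, adjusted over the 5 pairs 0.625). The LHCB4.2 difference was above that of LHCB4.3 by 0.72 (exact p = 0.4, adjusted 0.625), and the LHCB4.1 difference was above that of LHCB4.3 by 0.48 (exact p = 0.5, adjusted 0.625). With 3 arrays against 3 the smallest p this test allows is 0.1, so it could not have passed. The 3 probe sets belong to related genes, and whether a transcript of one isoform binds the probes of another was not checked, since no probe sequences were used here.

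The photosystem I genes encode small extrinsic subunits on opposite faces of the complex. PSAE1 (AT4G28750) encodes a stromal subunit that helps ferredoxin to dock. Its signals were 16547, 11698 and 16359 in Col0 and 16063, 14881 and 16845 in AmGSTF1. Col0 replicate 2 stood below the other 5 arrays, which spanned 14881 to 16845. The log2 difference was 0.12 (SE 0.15, 95% interval -0.23 to 0.46, adjusted p = 0.697 by limma), and without Col0 replicate 2 it was -0.048.

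PSAN (AT5G64040) encodes a lumenal subunit that takes part in the binding of plastocyanin. Its signals were 7217, 5414 and 7042 in Col0 and 8504, 4670 and 8266 in AmGSTF1. AmGSTF1 replicates 1 and 3 were the highest of the 6 arrays and AmGSTF1 replicate 2 was the lowest. The log2 difference was 0.085 (SE 0.23, 95% interval -0.43 to 0.60, adjusted p = 0.865 by limma). It was 0.37 (adjusted p = 0.181) without AmGSTF1 replicate 2 and -0.066 without AmGSTF1 replicate 1. The differences of PSAE1 and PSAN were 0.031 apart (exact permutation p = 1 over 6 arrays). With a smallest p of 0.1, this test could not have passed, so equal change is not shown.

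The photosystem II genes encode small membrane proteins associated with the core. PSBW (AT2G30570) encodes a membrane subunit that helps to hold the core and its light-harvesting trimers together. Its signals were 10706, 8100 and 7927 in Col0 and 11291, 8483 and 9696 in AmGSTF1, so replicate 1 was the highest array in each group and the ranges overlapped. The log2 difference was 0.14 (SE 0.16, 95% interval -0.22 to 0.50, adjusted p = 0.637 by limma). It was above 0 in all 21 alternatives, from 0.039 without AmGSTF1 replicate 1 to 0.28 without Col0 replicate 1. Again, many of these alternatives could not change the difference itself.

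PSBY (AT1G67740) encodes a small membrane subunit located near cytochrome b559. Its signals were 15078, 12866 and 15484 in Col0 and 15065, 12540 and 15931 in AmGSTF1, so replicate 2 was the lowest array of each group. The group means were 14476 ± 1409 and 14512 ± 1762 (SD, n = 3), and the log2 difference was 0.00093 (SE 0.14, 95% interval -0.30 to 0.31, adjusted p = 0.997 by limma). As ratios the interval runs from 0.809 to 1.24, so these arrays leave room for a difference in either direction of up to about that size. The differences of PSBW and PSBY were 0.14 apart (exact permutation p = 0.5 over 6 arrays, adjusted 0.625), again in a test whose smallest p is 0.1.

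ATPC1 (AT4G04640) encodes the gamma subunit of the chloroplast ATP synthase, the central shaft that carries the disulfide through which light activates the enzyme. Its signals were 17757, 13530 and 14601 in Col0 and 15643, 12992 and 15883 in AmGSTF1. Col0 replicate 1 was the highest of the 6 arrays and AmGSTF1 replicate 2 the lowest. The log2 difference was -0.040 (SE 0.14, 95% interval -0.36 to 0.28, adjusted p = 0.902 by limma), and the interval corresponds to ratios from 0.779 to 1.21. By class, the median differences were 0.23 for the 3 minor antenna genes, 0.10 and 0.073 for the pairs of photosystem I and photosystem II genes, and -0.040 for ATPC1, the single measured ATP synthase gene. With 1 array left out these ranged from 0.16 to 0.34 for the minor antenna, from -0.048 to 0.26 for photosystem I, from 0.00055 to 0.17 for photosystem II and from -0.12 to 0.072 for ATPC1. For photosystem I the lowest and highest values came without Col0 replicate 2 and without AmGSTF1 replicate 2, and likewise for photosystem II.

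The 8 genes shared a pattern between replicates that crossed the groups. AmGSTF1 replicate 2 was the lowest array of its group in 8 of the 8 genes, beside 39.4% of all probe sets tested. Col0 replicate 2 was the lowest of its group in 7 of the 8, beside 35.3%, and PSBW, the exception, was lowest on Col0 replicate 3. Relative to the mean of the Col0 arrays, the median of the 8 genes was 0.19, -0.17 and 0.026 on Col0 replicates 1, 2 and 3 and 0.21, -0.13 and 0.17 on AmGSTF1 replicates 1, 2 and 3 (log2 scale). The median over all probe sets tested lay between -0.0033 and 0.066 on the same arrays. Within each group the span between replicates was thus larger than the median difference of 0.10 between the groups.

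**Figure D2:**
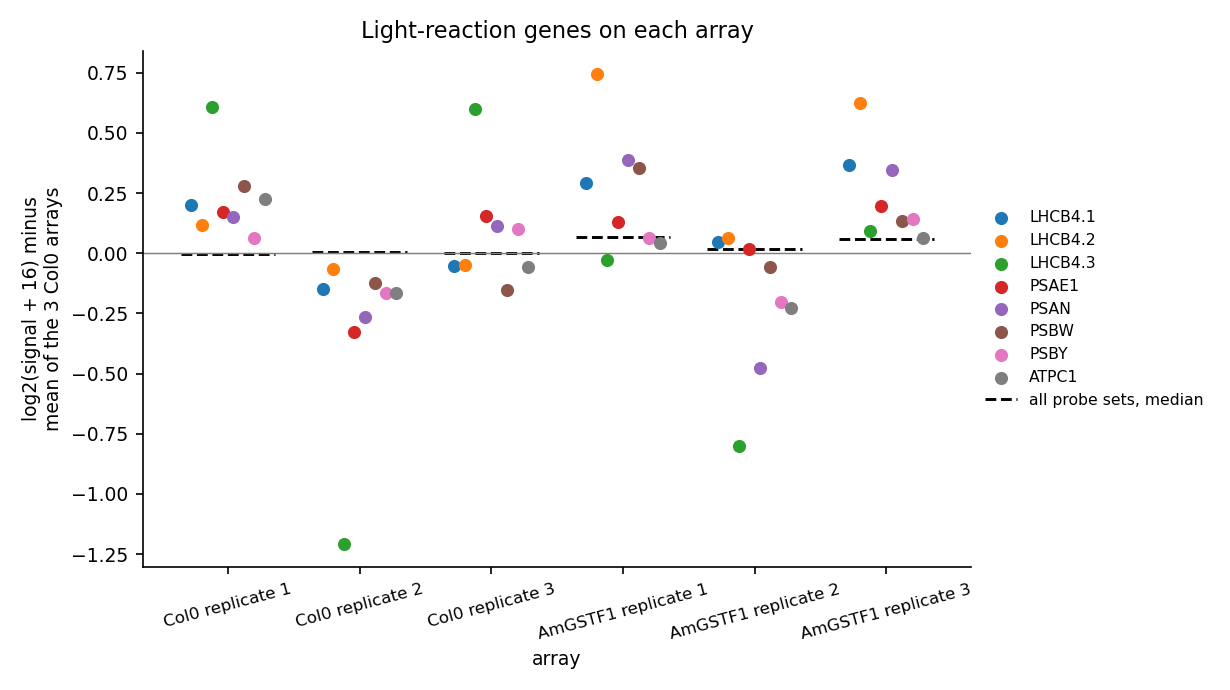
Each point is the log2(signal + 16) of 1 light-reaction gene on 1 array minus that gene's mean over the 3 Col0 arrays, and the dashed line is the median over all probe sets tested. On Col0 replicate 2 all 8 genes lie below 0 and on AmGSTF1 replicate 2 their median is -0.13, while on AmGSTF1 replicates 1 and 3 LHCB4.2 lies highest (0.74 and 0.62).

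Both replicate 2 arrays also stood apart in other measures. Their array weights, which limma sets from how well an array follows the fit, were 0.645 in Col0 and 0.602 in AmGSTF1, against 1.003 to 1.44 on the other 4 arrays. Their highest signals were 31649 and 31865, against 35378 to 38697 on the others, although the mean after 2% trimming was 496 on all 6 arrays. After quantile normalization, which gives all arrays 1 distribution, AmGSTF1 replicate 2 was still the lowest of its group in 8 of the 8 genes. Col0 replicate 2 was then the lowest in 4 of the 8 and Col0 replicate 3 also in 4, so this count no longer set Col0 replicate 2 apart. The median of the 8 genes relative to Col0 was then -0.060 on Col0 replicate 2 and -0.043 on AmGSTF1 replicate 2.

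Omitting both replicate 2 arrays, an alternative picked once the values had been seen, leaves 2 arrays per group. In that fit LHCB4.2 was higher in AmGSTF1 by 0.65 (adjusted p = 0.0107 by limma) and LHCB4.3 lower by -0.57 (adjusted p = 0.0446). That is 1 of the 8 genes higher and 1 lower, where 7.97% of all probe sets tested were higher and 6.73% lower. The other 6 genes did not pass in this fit, and PSAE1, PSBY and ATPC1 lay close to 0, at -0.00029, 0.020 and -0.031. LHCB4.1 was at 0.25 (adjusted p = 0.2), PSAN at 0.23 (0.21) and PSBW at 0.18 (0.479). The median of the 8 genes was 0.10, as with all arrays.

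**Figure D3:**
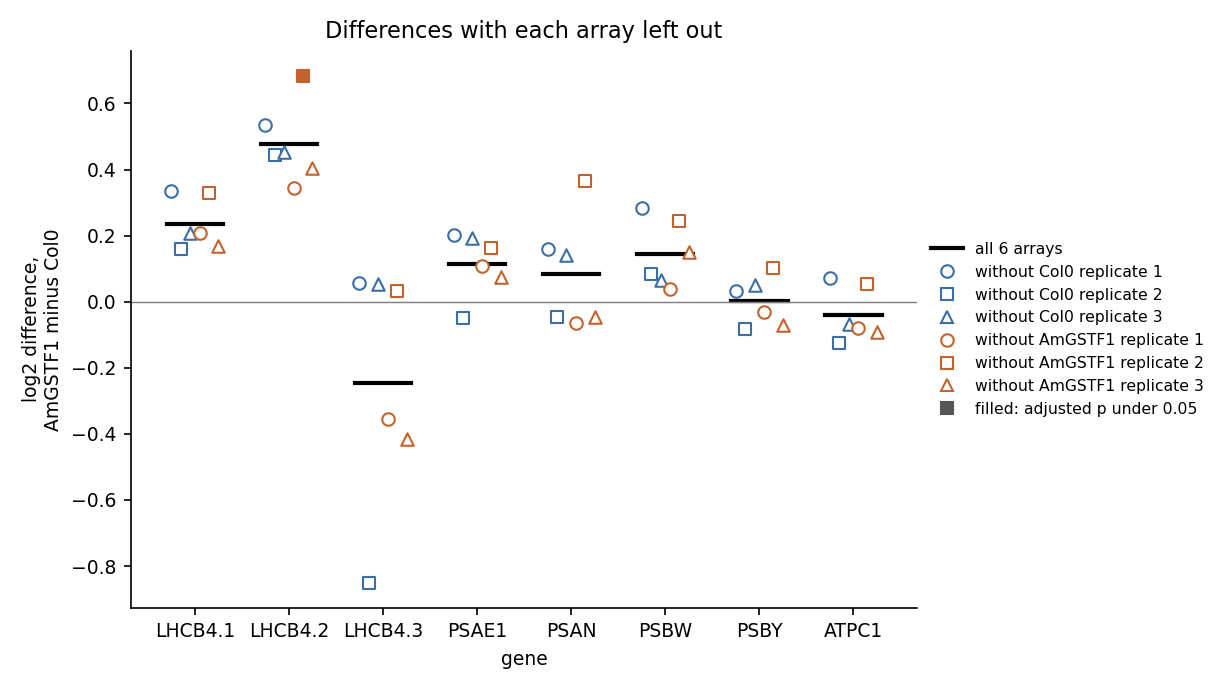
Log2 difference, AmGSTF1 minus Col0, of each light-reaction gene with all 6 arrays (black line) and with each array left out in turn (blue for a Col0 array, orange for an AmGSTF1 array, marker shape for its number, filled where the adjusted p was under 0.05). The single filled point is LHCB4.2 without AmGSTF1 replicate 2 (0.68), and LHCB4.3 spreads from -0.85 to 0.058.

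Related genes were set beside these 8. Among plastid-encoded subunits of the same complexes, 12 of 12 listed genes had a probe set and 11 passed the filter on low signals, petD being the one that did not. Of these, 0 were higher and 0 lower by limma, where 2.14% of all probe sets tested were higher and 2.9% lower. At an unadjusted p under 0.05 there was 1, beside 23.3% of all probe sets tested, and the median difference was 0.15. psaC, the plastid-encoded iron-sulfur subunit to which PSAE1 is adjacent in photosystem I, was measured at signals of 145, 143 and 115 on the Col0 arrays and of 224, 164 and 189 on the AmGSTF1 arrays. Its groups did not overlap, as for 27.6% of all probe sets tested. The log2 difference of psaC was 0.47 (95% interval 0.026 to 0.91, adjusted p = 0.190 by limma). The largest difference of this list, 0.61 (-0.30 to 1.51, adjusted p = 0.408 by limma), was that of the photosystem I reaction-centre gene psaA. Its signals were 194, 107 and 101 in Col0 and 423, 136 and 143 in AmGSTF1, so AmGSTF1 replicate 1 stood above the other 5 arrays, and without it the difference was 0.11 (adjusted p = 0.898 by limma). Both psaA and psaC were dim and fell out when the dimmest 60% of probe sets were removed. The reaction-centre genes psaB and psbA differed by 0.078 (-0.24 to 0.40) and -0.063 (-0.43 to 0.31), and psbD by 0.075 (-0.49 to 0.64). The core antenna genes psbC and psbB differed by 0.15 and 0.26, and petA and petB of the cytochrome complex by 0.24 and -0.12. The plastid ATP synthase genes atpA and atpB differed by 0.20 (-0.24 to 0.64) and 0.13 (-0.21 to 0.47), beside -0.040 for the nuclear ATPC1. Whether the array measures plastid transcripts as it does nuclear ones was not checked, so the sizes of these differences may not be comparable.

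Among 24 other nuclear genes for light-reaction subunits and cyclic electron flow, 7 were measured and 0 were called, with a median difference of 0.27. Over all probe sets tested 2.14% were called higher and 2.9% lower. PGRL1B, a thylakoid protein of cyclic electron flow around photosystem I, had the smallest p. Its signals of 571, 595 and 630 in Col0 did not overlap with 852, 754 and 913 in AmGSTF1, as for 27.6% of all probe sets tested. The log2 difference of PGRL1B was 0.47 (95% interval 0.16 to 0.79, adjusted p = 0.0780 by limma). With array weights it was 0.52 (adjusted p = 0.0331 by limma), where 5.96% of all probe sets tested were higher. No other fit tried gave PGRL1B an adjusted p under 0.05. It was 0.43 (0.108) with quantile scaling, 0.39 (0.136) with median centring and 0.41 (0.226) without AmGSTF1 replicate 3. The NDHL and NDHN subunits of the chloroplast NADH dehydrogenase-like complex differed by 0.32 (-0.18 to 0.83) and 0.29 (-0.15 to 0.73), and PSB27, an assembly factor of photosystem II, by 0.27 (-0.14 to 0.69). CURT1A, which bends thylakoid membranes at the edges of grana, differed by -0.17 (-0.52 to 0.18), and ATPC2, the second gene for the gamma subunit, by -0.19 (-0.66 to 0.28). AT2G26500, with no symbol in the gene table, was at 0.017.

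In the Calvin-Benson cycle, which spends the ATP and NADPH of the light reactions, 3 of 20 listed genes were measured and 0 called. The shares over all probe sets tested were 2.14% higher and 2.9% lower. PRK, the phosphoribulokinase that makes the acceptor of carbon dioxide, was measured at signals of 6760, 6637 and 5889 on the Col0 arrays and of 10564, 5698 and 10419 on the AmGSTF1 arrays. As in LHCB4.2, AmGSTF1 replicates 1 and 3 were above every Col0 array. Unlike in LHCB4.2, AmGSTF1 replicate 2 was below every Col0 array in PRK. The log2 difference of PRK was 0.42 (-0.082 to 0.91, adjusted p = 0.293 by limma), and 0.71 (adjusted p = 0.0186) without AmGSTF1 replicate 2. Without AmGSTF1 replicate 1 it was 0.26 (adjusted p = 0.640) and without AmGSTF1 replicate 3 it was 0.27 (0.603). The Rubisco activase RCA and the bisphosphatase SBPASE differed by -0.17 (-0.50 to 0.16) and -0.15 (-0.56 to 0.25).

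Of 12 photorespiration genes 3 were measured and 0 called, where 2.14% of all probe sets tested were higher and 2.9% lower. The gene with the smallest p, AT1G80380, differed by 0.19 (-0.23 to 0.62, adjusted p = 0.594 by limma). Its signals ran from 954 to 1530 on the Col0 arrays and from 1345 to 1615 on the AmGSTF1 arrays, so the groups overlapped. Of 7 light-harvesting-like genes 2 were measured and 0 called, LIL3:2 at 0.20 (-0.14 to 0.54, adjusted p = 0.471 by limma) and LIL3:1 at -0.017 (-0.50 to 0.46). The LIL3:2 signals, 2066 to 2777 in Col0 and 2541 to 3081 in AmGSTF1, also overlapped. Regulators of photosynthesis genes had 0 of 10 measured. Over the 29 measured genes of these lists and of the cell type markers, AmGSTF1 replicate 2 was the lowest array of its group in 25 and Col0 replicate 2 in 16.

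**Figure D4:**
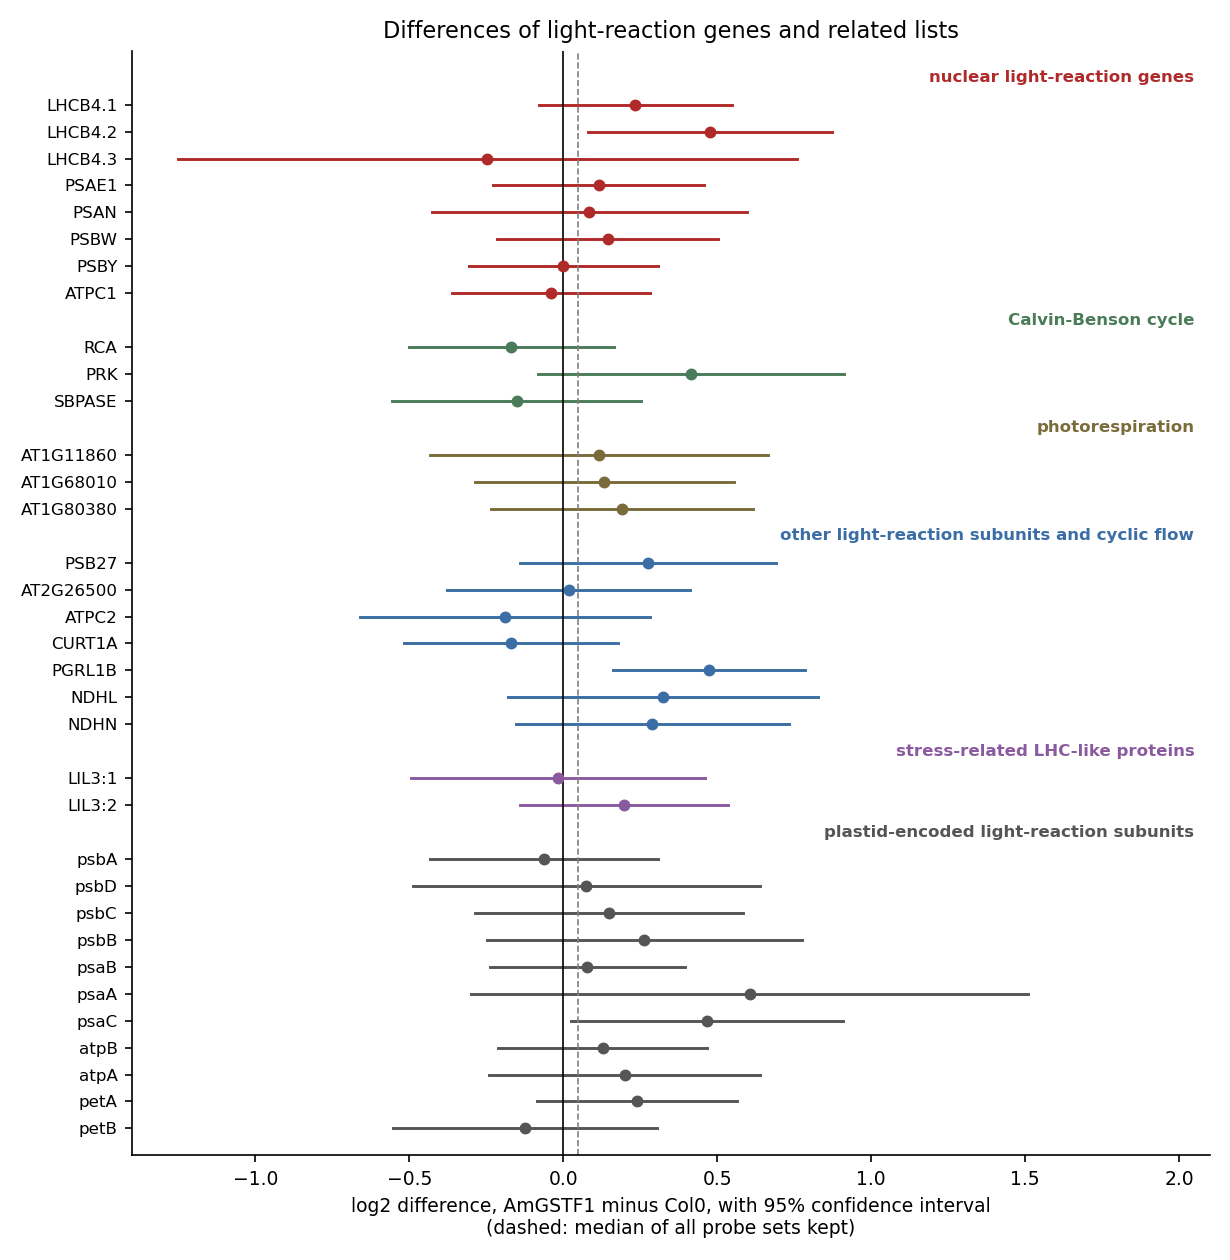
Log2 difference, AmGSTF1 minus Col0, with its 95% confidence interval from limma, for the 8 nuclear light-reaction genes (red) and the measured genes of 5 related lists; the dashed line is the median over all probe sets tested (0.047). The intervals of LHCB4.2, PGRL1B and psaC lie above 0 before adjustment, and no gene shown passed the adjusted threshold.

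The leaf identity of the samples and other cell types could be checked with few genes. RCA, a gene of green leaf cells, had signals of 15370 to 22829 on the 6 arrays, and the signal below which 40% of probe sets lay was 68.7 to 84.5. Of 31 listed markers of root, guard cells, vasculature, epidermis, flower and dividing cells, the annotation used gave 3 a probe set alone. Detection calls were not used, so whether transcripts of these 3 were present was not tested. The root gene PYK10 ranged from 38.5 to 85.9 in Col0 and from 63.2 to 173 in AmGSTF1, with its highest value on AmGSTF1 replicate 2 (log2 difference 0.63, adjusted p = 0.350 by limma). On 3 of the 6 arrays PYK10 lay below that array's 40% signal. The guard cell regulator FMA ranged from 107 to 127 in Col0 and from 59.96 to 96.3 in AmGSTF1 (log2 difference -0.55, adjusted p = 0.201 by limma), and its lowest value was also on AmGSTF1 replicate 2. On AmGSTF1 replicates 2 and 3 FMA (59.96 and 73.4) lay below the 40% signal of those arrays (72.1 and 84.5). SWEET11 of the vasculature ranged from 2738 to 5236 and from 3368 to 4847 (0.083, adjusted p = 0.868). The part of tissue composition in the values of the light-reaction genes was not tested.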

How the data were processed

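Signals of 3 Col0 and 3 AmGSTF1 leaf samples were analysed. The deposited intensity values are, per the submitters' processing notes, linear MAS5 signals made with Affymetrix Expression Console 1.1, and their equal trimmed means show a common scale. Detection calls were not used, and the number of arrays limits the precision. Signals were taken as log2(signal + 16), the dimmest 40% of probe sets were left out, and groups were compared with limma 3.58.1 (R 4.3.3, intensity trend, two-sided, Benjamini-Hochberg over all probe sets kept, no replicate term). Figures used Python 3.11.15 with matplotlib 3.10.9. Names came from GEO's platform annotation, updated with RefSeq's TAIR10.1 gene table: 13513 probe sets had 1 gene, 503 several and 8730 were unnamed here. Of 116 genes in 12 related lists and marker lists, this annotation gave 30 a probe set alone. Whether unnamed probe sets match the others was not checked. The members, lists and tests were chosen with earlier results of these data known. Every measured member was named with its values on each array, and each related list by the gene with the smallest p. Genes named beyond these were chosen after their values were seen. Alternatives covered pseudocounts, filters, scalings, variance settings, array weights, a replicate block and omission of arrays. The steps were tested on simulated data, in which 3.43% of changes of 0.5 on the log2 scale were recovered. For changes of 1 and 2 the shares were 44.9% and 89.85%. A gene not called is therefore not shown to be unchanged, above all for differences of 0.5 or less.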

Additional observations from a re-analysis of the deposited data

How the results depend on the processing

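None of the 8 genes was called with all arrays, and this held under every alternative except array weights (1 higher, LHCB4.2), omission of 1 array (0 to 1 higher, LHCB4.2 without AmGSTF1 replicate 2) and, chosen after the data were seen, omission of both replicates 2 (1 higher and 1 lower). Only the pseudocounts, scalings, array weights and omission of arrays could change a difference here. LHCB4.1, LHCB4.2 and PSBW kept their sign under these, and so under all 21 alternatives. With 1 array left out the others ranged from -0.85 to 0.058 (LHCB4.3), -0.048 to 0.20 (PSAE1), -0.066 to 0.37 (PSAN), -0.082 to 0.10 (PSBY) and -0.12 to 0.072 (ATPC1), and the median of the 8 genes from -0.048 without Col0 replicate 2 to 0.20 without AmGSTF1 replicate 2. Signs also turned for ATPC1 with quantile (0.019) and cyclic loess (0.079) scaling, for PSAN (-0.0038) and PSBY (-0.088) with median centring, and for PSAE1 without both replicates 2 (-0.00029). The cause was not tested. Over all probe sets, 292 were higher and 396 lower. These counts were 123 and 213 with no filter, 222 and 599 with median centring, 192 and 237 without the intensity trend, 814 and 827 with array weights, 745 and 777 at an adjusted p under 0.1, and 1087 and 918 without both replicates 2. With 1 array left out they ranged from 6 to 603 and from 5 to 566. Deviations of same-numbered arrays from their group means correlated at r = 0.146, -0.027 and -0.050 across probe sets for replicates 1, 2 and 3. These values cannot settle whether the numbers pair the samples, and a shared handling of same-numbered samples was not tested. With the replicate block 40 and 38 probe sets were called, 0 of the 8 genes among them, and LHCB4.2 had an adjusted p of 0.128. Using the dimmest probe set per gene changed nothing, since each gene had 1, and adding probe sets shared by several members was not run, since 0 had been annotated.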
